A study of Mus musculus with 3 samples.

Results

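8 genes that are switched on in the mouse 2-cell embryo (Tcstv1, Tcstv3, Tdpoz1, Tdpoz2, Tdpoz3, Tdpoz4, Zscan4c and Zfp352) were followed in embryos derived from competent and from incompetent eggs. Their probes were all those that the array's annotation assigns to these symbols, or that match them through RefSeq synonyms. All 8 genes had a probe in the deposited table, so none was missing, and together they accounted for 11 of 25697 probes and 8 of 16593 named genes. Tdpoz1, Tdpoz3 and Tdpoz4 were each measured by a pair of probes, and the others by 1.

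The mouse embryo begins to transcribe its own genome in earnest at the 2-cell stage, while maternal messages stored in the egg are degraded. Part of this first wave is transient and is known for genes that come in families of close copies, several of which use the long terminal repeat of an endogenous retrovirus as a promoter. Zscan4 genes encode zinc finger proteins that are needed for timely cleavage beyond this stage and for telomere maintenance in embryonic stem cells, Tdpoz genes encode proteins with TRAF and POZ domains, Tcstv genes encode small proteins of the 2-cell-stage variable group, and Zfp352 encodes a zinc finger protein.

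Transcripts were measured on Illumina mouse-8 BeadChips, which give a fluorescence intensity for each probe. There was 1 array of 2-cell ctrl embryos and 2 arrays (NSN-a and NSN-b) of 2-cell NSN embryos. All embryos were of the strain labelled F1B6C3H, which the study's methods call B6C3F1, and were taken 26 hr after insemination with sperm of males aged 5 months. NSN oocytes, whose nucleolus has no ring of heterochromatin, were collected from the antral follicles of females aged 4 to 6 weeks after PMSG injection and were matured in culture, whereas control eggs had been ovulated. The type of oocyte and its maturation in culture cannot be told apart here. The messenger RNA went through 2 rounds of amplification before hybridisation, while the number of embryos behind an array is not given in the sources used here, nor whether NSN-a and NSN-b were separate pools, so that the spread between them may be technical. As embryos were analysed in bulk, fewer embryos expressing a gene and less RNA per embryo cannot be told apart.

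Of the 8 genes, 4 (Zfp352, Tdpoz1, Zscan4c and Tdpoz4) matched the RefSeq promoter sequences of build GRCm38.p6, and the 250 bases before their start of transcription are shown, since they belong to 1 member that was above background in control embryos (Tdpoz1), its close copy that was not (Tdpoz4) and both zinc finger genes. Zfp352 lies at chr4:90218570-90218819 on the plus strand, Tdpoz1 at chr3:93676284-93676533 on the minus strand, Zscan4c at chr7:11005495-11005744 on the plus strand and Tdpoz4 at chr3:93796148-93796397 on the plus strand. Sequences run 5′ to 3′, and capitals mark the letters TATAA, the core of a TATA box, and TAATCC, a core bound by homeobox proteins of the OTX type.
Zfp352: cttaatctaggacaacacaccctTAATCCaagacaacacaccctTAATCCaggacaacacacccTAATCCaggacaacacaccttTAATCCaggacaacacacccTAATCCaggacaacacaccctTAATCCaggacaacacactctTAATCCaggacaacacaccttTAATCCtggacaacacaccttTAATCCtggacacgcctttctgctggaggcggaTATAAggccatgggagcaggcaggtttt
Tdpoz1: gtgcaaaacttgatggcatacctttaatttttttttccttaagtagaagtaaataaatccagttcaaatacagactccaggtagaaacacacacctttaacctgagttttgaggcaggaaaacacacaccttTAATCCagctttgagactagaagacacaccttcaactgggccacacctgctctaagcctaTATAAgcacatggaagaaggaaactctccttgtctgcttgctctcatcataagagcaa
Zscan4c: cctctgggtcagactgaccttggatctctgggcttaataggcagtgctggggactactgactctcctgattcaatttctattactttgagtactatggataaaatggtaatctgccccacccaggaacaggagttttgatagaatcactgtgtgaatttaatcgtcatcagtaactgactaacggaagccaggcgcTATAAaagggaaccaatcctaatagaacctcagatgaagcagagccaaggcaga
Tdpoz4: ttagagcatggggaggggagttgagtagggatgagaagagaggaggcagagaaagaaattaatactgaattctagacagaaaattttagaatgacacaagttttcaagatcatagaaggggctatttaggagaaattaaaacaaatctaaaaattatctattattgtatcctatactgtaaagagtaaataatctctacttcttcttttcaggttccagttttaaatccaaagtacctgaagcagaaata

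TATAA, searched on both strands, was present once in Zfp352 (starting 28 bases before the start of transcription), Tdpoz1 (58 bases before) and Zscan4c (54 bases before), and was not found in the window of Tdpoz4. It occurred in 22.8% of all 32851 windows of this length. TAATCC, also searched on both strands and free of overlap with TATAA, occurred in 6.25% of the windows. Zfp352 held 9 copies of it, all on the forward strand and spaced by 20 or 21 bases in a tandem repeat, and it was the single window out of 32851 with 9 or more. Tdpoz1 held 1 copy and Zscan4c and Tdpoz4 none. Both motifs were picked after the sequences had been read, and a match describes the letters only.

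**Figure D1:**
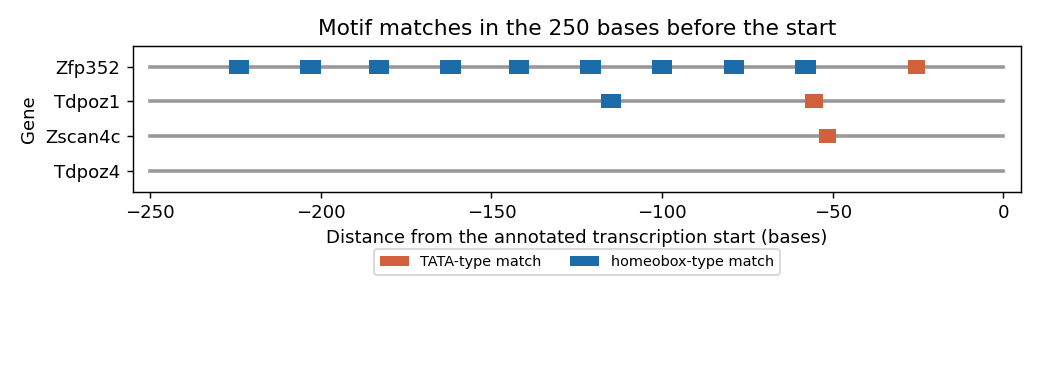
Positions of TATA-type (TATAA) and homeobox-type (TAATCC) matches in the 250 bases before the annotated start of transcription, in bases from that start, for Zfp352, Tdpoz1, Zscan4c and Tdpoz4. The 9 evenly spaced homeobox-type matches of Zfp352 stand against 1 in Tdpoz1 and none in the other genes.

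The deposited intensities are background-subtracted, so a probe without signal reads near 0 and can be negative. A probe was taken as above background when its intensity reached the level at which the study's detection p value falls to 0.01, which was 6.10 on the control array and 8.57 on NSN-a. For NSN-b no p values were held, and a limit of 8.28 was assumed from that of NSN-a and the spread of the signals under the median. The control array then had 1085 probes (4.22%) above background, NSN-a 193 (0.751%) and NSN-b 203 (0.790%). Of the 1085 control probes, 911 were above background on neither NSN array. Markers of cumulus and granulosa cells (0 of 9 above background) and of sperm and testis (0 of 6) were at background on all 3 arrays, whereas 8 of 15 oocyte and early embryo markers were above it in the control and 3 on each NSN array. The summed intensity of these 15 markers was 350.1 in the control, 63.6 on NSN-a and 62.6 on NSN-b. The part of this wider difference between arrays in the results on the 8 genes was not tested.

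Among the 8 genes, Tcstv3, Tcstv1 and Tdpoz1 were detected in 2-cell ctrl embryos, and none was detected in 2-cell NSN embryos. Of the 11 probes, 3 were above background in the control, 0 on NSN-a and 0 on NSN-b. These 3 were lower in 2-cell NSN embryos by at least 1.5-fold, the fold threshold of the study's methods, and no probe was higher. Over the whole array 1.88% of probes were called lower and 0.331% higher by the same rule. Among the 1085 probes above background in the control, 44.5% were called lower. The 8 genes were chosen with earlier results of these data known, so these shares are no independent test. With a single control array, an exact permutation test of 1 array against 2 cannot go below p = 0.333, so none was made on single probes. Where a probe was below background in 2-cell NSN embryos its intensity was set to the limit of the array. With these limits and the control value as measured, the fold can only be larger than the value given with "at least". Differences on other scales, given below, were smaller.

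**Figure D2:**
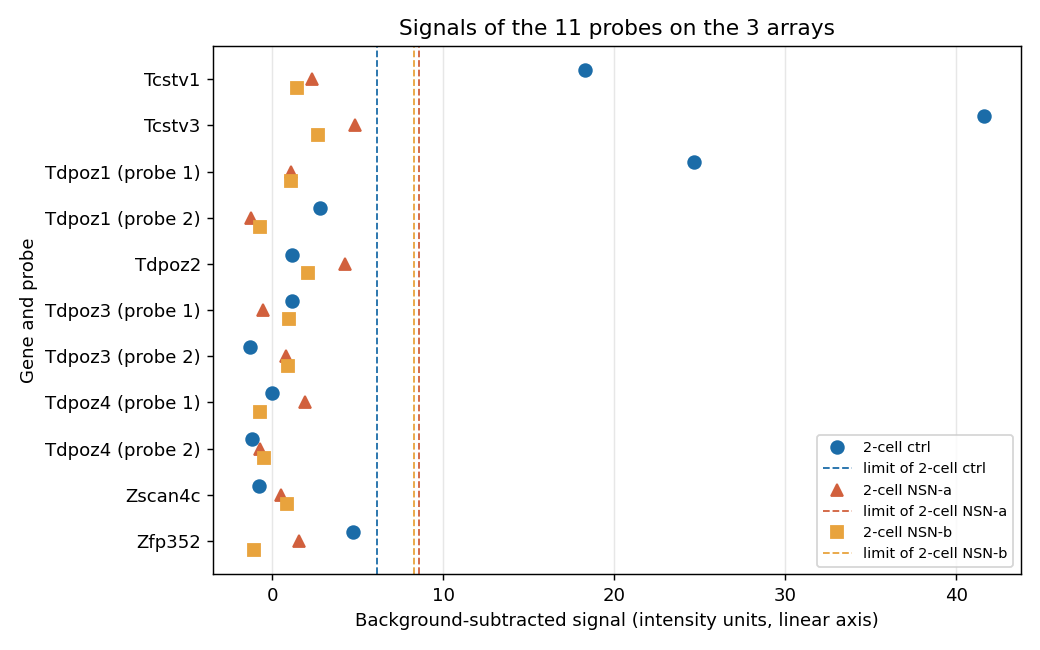
Background-subtracted intensity (linear axis) of the 11 probes on the 2-cell ctrl array (circles), NSN-a (triangles) and NSN-b (squares), with the detection limit of each array as a dashed line. Control signals of Tcstv1 (18.3), Tcstv3 (41.6) and Tdpoz1 probe 1 (24.7) lie to the right of their limit, and all other points lie to the left of theirs.

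Both members of the 2-cell-stage variable group were detected in the control. Tcstv3 gave an intensity of 41.6 in 2-cell ctrl embryos, 4.82 on NSN-a and 2.67 on NSN-b. Both NSN values were far below the control and under the limit of their array, so that Tcstv3 was lower in 2-cell NSN embryos by at least 4.94-fold (log2 difference of -2.30 or below). At the looser detection p value of 0.05, NSN-a alone kept a Tcstv3 signal above its limit of 3.30.

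Tcstv1 gave 18.3 in 2-cell ctrl embryos, 2.32 on NSN-a and 1.44 on NSN-b. It showed the same order as Tcstv3, with the control high and both NSN arrays at background, and was at least 2.17-fold lower. Both genes lie on chromosome 13 in RefSeq, and AF067063 is a neighbour of Tcstv1. As Tcstv1 and Tcstv3 are close copies and no probe sequences were used here, signal of one transcript at the probe of the other was not tested. Nor was it tested for the copies within the Tdpoz and Zscan4 families.

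In the Tdpoz family, whose 4 members followed here are neighbours in a row on chromosome 3 (Tdpoz2, Tdpoz1, Tdpoz4 and Tdpoz3), 1 of 7 probes was above background. Probe 1 of Tdpoz1 gave 24.7 in 2-cell ctrl embryos, 1.08 on NSN-a and 1.10 on NSN-b. The NSN arrays gave nearly the same value as each other, both under the limit, which is at least 2.93-fold lower (log2 difference of -1.55 or below). Probe 2 of Tdpoz1, annotated to the same transcript, gave 2.82 in the control, -1.26 on NSN-a and -0.722 on NSN-b. It had the same order of arrays but did not reach the control limit, so the pair disagrees on detection.

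Tdpoz2 was the only one of the 11 probes with an NSN signal past the looser limits and a control signal that was not. It gave 1.19 in 2-cell ctrl embryos, 4.27 on NSN-a and 2.07 on NSN-b. Only NSN-a passed its limit at a detection p value of 0.05 (3.30), and at 0.01 neither array did, so no fold can be given.

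Probe 1 of Tdpoz3 gave 1.14, -0.515 and 0.968 on the control array, NSN-a and NSN-b, and probe 2 gave -1.29, 0.815 and 0.922. Probe 1 of Tdpoz4 gave -0.0357, 1.92 and -0.712, and probe 2 gave -1.21, -0.687 and -0.499. All 12 of these values lay below background, and the pairs of probes do not order the arrays alike. Probes of the copies Tdpoz5 and Tdpoz8, which are not among the 8 genes, were below background as well, between -2.27 and 2.14.

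Zscan4c, the member of its family with a probe in the table, gave no signal above background in either group. Its intensity was -0.786 in 2-cell ctrl embryos, 0.530 on NSN-a and 0.883 on NSN-b. The control value was the lowest and lay under the median of its array (0.0916), so this probe showed no Zscan4c message that the arrays could detect, which is not a measure of its absence.

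Zfp352 was the gene closest to detection without reaching it. It gave 4.70 in 2-cell ctrl embryos, 1.55 on NSN-a and -1.07 on NSN-b. The control value passed the limit of 2.94 at a detection p value of 0.05, and no NSN value passed its own. With the looser limits the fold threshold was still not reached, since the bound depends on the NSN limits.

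The place of a probe among all probes of its own array needs no scaling between arrays. Tcstv3 stood at percentile 99.4 in the control, 97.4 on NSN-a and 89.9 on NSN-b, and Tcstv1 at percentile 98.6, 86.7 and 76.6. Probe 1 of Tdpoz1 went from percentile 98.9 to 70.7 and 71.1. The NSN signals of these 3 called probes were all under their limits, so the sizes of their falls cannot be ranked. Zfp352 went from percentile 94.3 to 78.0 and 27.2. Its NSN signals of 1.55 and -1.07 were both at background, where small differences in intensity span many percentiles. Zscan4c went the other way, from percentile 27.8 to 60.2 and 67.0, in a range where probes read background. The median percentile of the 11 probes was 73.2 in the control, 70.7 on NSN-a and 67.7 on NSN-b.

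**Figure D3:**
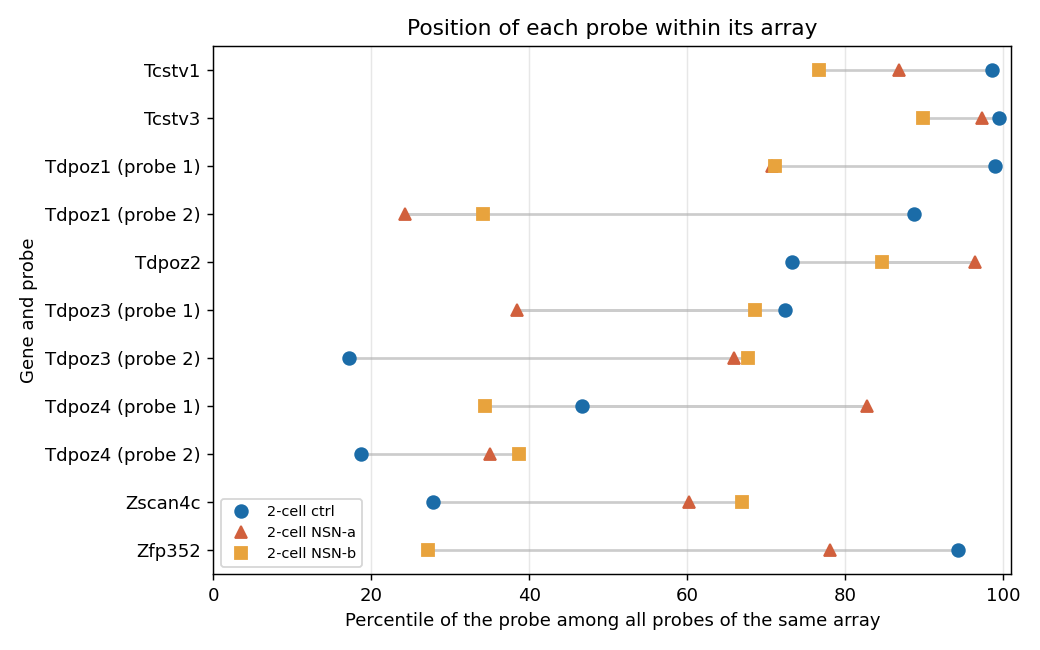
Percentile of each of the 11 probes among the 25697 probes of the same array, for 2-cell ctrl (circles), NSN-a (triangles) and NSN-b (squares). Tcstv1, Tcstv3, Zfp352, both Tdpoz1 probes and Tdpoz3 probe 1 have their highest percentile in the control, and Zscan4c, Tdpoz2, Tdpoz3 probe 2 and Tdpoz4 probe 2 have their lowest there.

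A model over all probes was also fitted, in limma on log2(signal + 16), a scale that keeps values below background and understates the change of dim probes. It assumes that the control, with 1 array, varies like the 2-cell NSN arrays, whose difference gives the only residual degree of freedom. In limma the spread of each probe is also drawn towards that of all probes of like intensity, most of them below background. The standard errors are therefore largely shared and are not the spread of single probes. The p-values set the control array against a spread that may be technical, and they are no replicate check of the control. The log2 difference of Tcstv3 came to -1.55 with a standard error of 0.13, that of Tdpoz1 probe 1 to -1.25 with 0.13 and that of Tcstv1 to -0.94 with 0.13. These 3 of the 11 probes were under an adjusted p of 0.05, where 3.09% of all probes were lower and 0.206% higher. Zfp352 (-0.36, standard error 0.15, adjusted p = 0.406) and probe 2 of Tdpoz1 (-0.33, standard error 0.14, adjusted p = 0.515) were not. For Zscan4c the value was 0.13 with a standard error of 0.14, for Tdpoz2 0.16 with 0.14 (adjusted p = 0.999 for both). The median log2 difference was -0.08 over the 11 probes and -0.01 over all probes.

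After normexp correction with an offset of 50 and quantile normalization none of the 3 differences reached 1.5-fold. In limma on those values 1.04% of all probes were lower, among them probe 1 of Tdpoz1 (-0.29, adjusted p = 0.0357) but neither Tcstv3 (-0.37, adjusted p = 0.109) nor Tcstv1 (-0.21, adjusted p = 0.118).

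**Figure D4:**
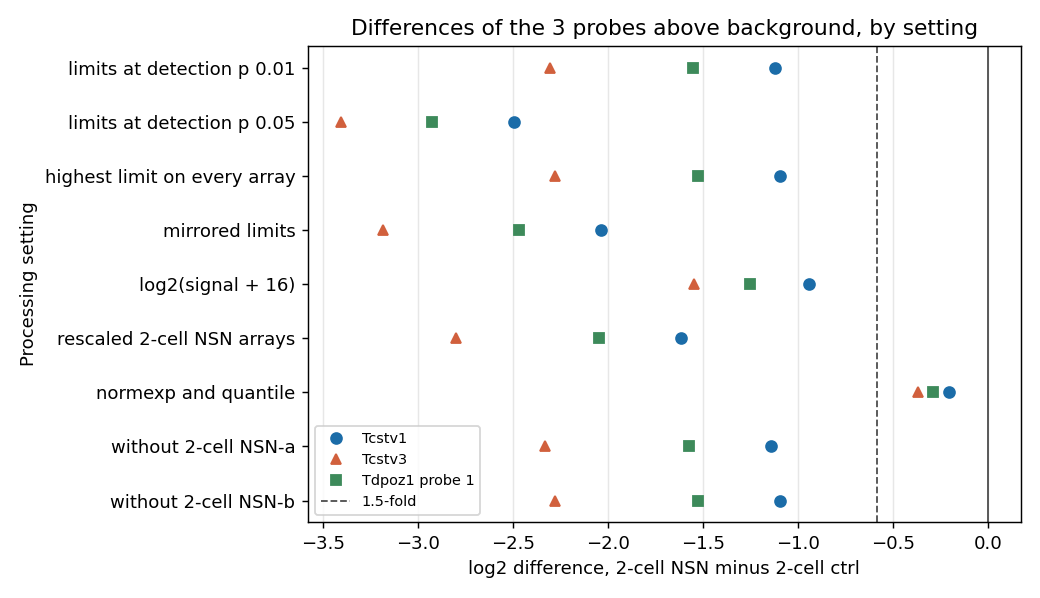
Log2 difference (2-cell NSN minus 2-cell ctrl) of Tcstv1, Tcstv3 and Tdpoz1 probe 1 under each processing setting, with the 1.5-fold threshold as a dashed line. All values are below 0, and those after normexp and quantile (-0.21 to -0.37) are the only ones that do not pass the threshold.

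A wider list of 92 genes linked to the 2-cell stage had 55 genes in the table, the 8 genes included. Of the other 47 genes, 8 were above background in 2-cell ctrl embryos and 0 on both NSN arrays, when each gene was read at its brightest probe. 5 of the 47 were at least 1.5-fold lower and none was higher, against 2.54% of all 16593 genes lower and 0.476% higher. Only a gene detected in the control could be called lower, so the 5 are among those 8. Of all genes, 931 were detected in the control and 422 of these were called lower. As the list was chosen with earlier results of these data known, these shares are no independent test. The median log2 difference on the log2(signal + 16) scale was -0.11 over the 47 genes, -0.22 over the 8 genes and -0.01 over all genes. Read at any probe, 9 of the 47 were above background, all in the control alone, and the same 5 were lower.

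Gm428 gave 58.6 in 2-cell ctrl embryos, 6.34 on NSN-a and 5.54 on NSN-b, at least 6.96-fold lower. Dppa4, a chromatin protein that helps to activate the 2-cell programme in embryonic stem cells, gave 29.2, -1.84 and 0.769 (at least 3.47-fold lower), with 1 of its 3 probes above background. AF067063, the neighbour of Tcstv1, gave 27.4, 1.34 and -1.58 (at least 3.25-fold lower), and AF067061, also on chromosome 13, gave 16.6, 0.0741 and 1.08 (at least 1.97-fold lower). In all of these genes the control was high and both NSN arrays were under their limits, as in Tcstv3, Tcstv1 and Tdpoz1.

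Nelfa, a subunit of the negative elongation factor of RNA polymerase II, gave 13.7 in the control, 6.81 on NSN-a and 0.139 on NSN-b (at least 1.63-fold lower), with the NSN arrays far apart. Klf17, a zinc finger transcription factor, gave 10.2, 0.315 and -0.670. Dppa3, which encodes the maternal-effect protein STELLA, gave 8.50, 0.133 and -1.34, and Zscan5b, a zinc finger gene, gave 7.91, -3.08 and -1.27. The control signals of these last genes exceeded the control limit, but stood under or too close to the NSN limits for a bound of 1.5-fold. On the log2(signal + 16) scale the differences were -0.73 (Klf17), -0.67 (Dppa3) and -0.79 (Zscan5b). The missing call therefore does not show that they were unchanged. Lgals4, which encodes the lectin galectin-4, passed the control limit at 1 of its 3 probes (6.76, 1.51 and 1.09) but not at its brightest one (3.86, 7.31 and 3.22), and no fold was called at either.

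**Figure D5:**
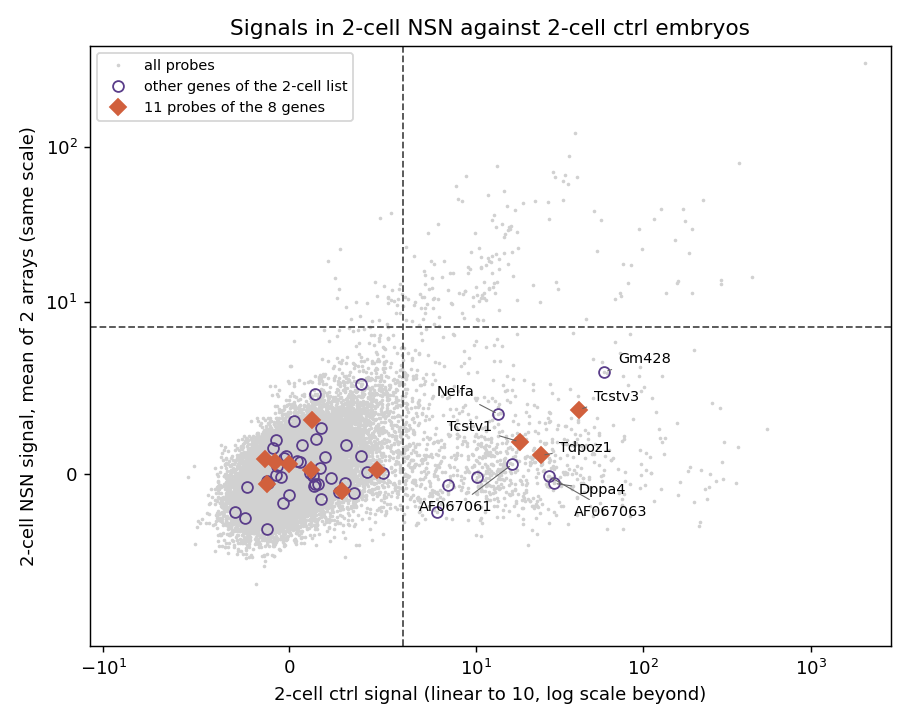
Intensity on the 2-cell ctrl array against the mean of both 2-cell NSN arrays (axes linear to 10 and logarithmic beyond), for all probes (grey), the 11 probes (diamonds) and the other genes of the 2-cell list (open circles), with the limits of the control (6.10) and of NSN-a (8.57) as dashed lines. The genes called lower are named, and all of them lie right of the control limit and under the NSN limit.

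The genes whose pattern over the 3 arrays lay nearest to that of Tcstv3 were Rbm47, Csrnp2, Atg5, Atp5b and Hdgf, at Euclidean distances of 0.00990 to 0.0290 on the log2 scale after the limits were applied. As all of them were below background on both NSN arrays, this likeness comes down to their control intensities, which ran from 40.8 (Hdgf) to 42.0 (Csrnp2).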

How the data were processed

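Before deposit, arrays were scaled to each other with a rank-invariant method, after removal of background, and negative control beads set which signals counted as expressed. BeadStudio 3 is the tool in the submitters' processing notes. The deposited intensity values used here are on a linear scale, with medians of 0.0916 (control), 0.0443 (NSN-a) and 0.0195 (NSN-b), and their exact normalization between arrays stays unknown. 3 columns of another deposited table, named like no sample, were left out.

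Detection limits were read from 896 of 1188 rows of signals with detection p values that the study lists, which matched exactly 1 probe on the control array and NSN-a within 0.002%. For NSN-b the limit of NSN-a was scaled by the root mean square of the signals under the median. Signals were floored at the limits and taken to log2, with both NSN arrays averaged. A call needed a 1.5-fold difference and detection in the control or on both NSN arrays. limma 3.58.1 (R 4.3.3) was fitted, with a trend on intensity and p-values adjusted after Benjamini-Hochberg, over all 25697 probes, an alternative added after seeing the data, since 0 of the 11 probes were among the 136 above background on all 3 arrays for which the test had been planned. Counting used Python 3.11.15 and pandas 2.3.3. The few arrays limit the precision.

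The members, the 2-cell list and the marker lists were chosen with earlier results of these data known. Named were every probe of the 8 genes, every gene of the list above background at any probe and the 5 genes nearest to the brightest member. Of 25697 probes, 23978 had 1 symbol in the platform annotation and 1719 none. Alternatives were other limits, a pseudocount of 16, rescaling, normexp with quantile normalization, a fold of 2, averaged probes and leaving out an NSN array.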

Additional observations from a re-analysis of the deposited data

How the results depend on the processing

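Tcstv3, Tcstv1 and probe 1 of Tdpoz1 stayed lower past 1.5-fold under other limits, with log2(signal + 16) and after rescaling. Rescaling divided the signals and limits of NSN-a by 1.43 and those of NSN-b by 1.39. The looser limits and rescaling all lowered the limits set on the NSN arrays. They could only deepen these bounds and are no check of them. Leaving out an NSN array gave log2 differences of -2.33 to -2.28 for Tcstv3, -1.15 to -1.09 for Tcstv1 and -1.58 to -1.53 for Tdpoz1. As both NSN signals of each probe were under their limits, this only changed which limit entered the bound. It is no check of the spread between the NSN arrays. The bounds deepened most with limits at a detection p value of 0.05, to -3.41, -2.50 and -2.93. With normexp and quantile the differences were -0.37 (Tcstv3), -0.21 (Tcstv1) and -0.29 (Tdpoz1), and 0 of the 11 probes, 0 genes of the 2-cell list and 83 of all probes (483 in the report) were lower. This setting adds an offset of 50, above every intensity of the 11 probes, which by construction compresses their folds. Its quantile step also gives the 3 arrays the same distribution of intensities. The part of each step in the smaller differences was not tested. In limma on the same values, chosen after seeing the data, the adjusted p was 0.109 for Tcstv3, 0.118 for Tcstv1 and 0.0357 for Tdpoz1.

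At a detection p value of 0.05, 1083 probes were lower and 233 higher, 2 of the 11 probes (Tcstv3 and Tdpoz2) were above background on NSN-a and 1 gene of the list (Usp17lb) was higher. With limits mirrored from the signals under each array's median these counts were 826, 160 and, for NSN-a, 1. The count of higher probes (85 in the report) was 31 with log2(signal + 16), 35 after rescaling and 37 at a fold of 2. The cause of these shifts in counts was not tested. No paired analysis was possible because the control has 1 array and the arrays share no pairing label. Most signals of the 11 probes lie too near background to show a difference of 1.5-fold.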
